A study of Rattus norvegicus with 9 samples.

Results

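The microRNAs described here are the miR-219 and miR-338 products of rat striatum, together with the entries encoded on the opposite strand of the same loci, miR-219b and miR-3065. They were taken by name from a count table of small RNAs, and all 8 of the 8 names looked for were present, out of 1759 entries of which 764 are miRNAs. Of these, 5 are products of the miR-219a and miR-338 hairpins (rno-miR-219a-5p, rno-miR-219a-2-3p, rno-miR-219a-1-3p, rno-miR-338-3p and rno-miR-338-5p), and the others are rno-miR-219b, rno-miR-3065-5p and rno-miR-3065-3p. The rat prefix is left out below. The libraries came from rats that were 8 weeks old when a dosing period of 8 weeks began, with gavage once daily on 6 days of each week. The MMT group received the fuel additive methylcyclopentadienyl manganese tricarbonyl dissolved in corn oil, at 4 mg/kg, which carries about 1 mg manganese per kg. The MnCl2 group, the study's positive control, received manganese chloride tetrahydrate at 200 mg/kg in physiological saline at 10 ml/kg. Control rats were given the corn oil alone, 1 ml/kg. MnCl2 and control libraries therefore differ in vehicle as well as in compound, and the effects of these cannot be told apart. Each group had 3 libraries, from a series of 18 rats with 3 per group and sex. The sex behind a library, and whether it holds 1 rat or a pool, are not in the labels, so p-values measure a spread between libraries that may be technical.

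miR-219 and miR-338 are microRNAs of the oligodendrocyte, the glial cell that wraps axons in myelin. A microRNA is cut from an RNA hairpin, is loaded into an Argonaute protein and represses messenger RNAs that pair with its seed, the bases 2 to 8 from its 5′ end. In mouse both families come on as oligodendrocyte precursors leave the cell cycle. There they repress transcripts that hold the precursor state, such as those of the growth factor receptor PDGFRA and the transcription factor SOX6. Mice that lack miR-219 form less myelin. The striatum, a known site of manganese injury, is crossed by bundles of myelinated axons, so its tissue RNA is a mixture in which oligodendrocytes take a part. In such a mixture fewer cells of a type and less of an RNA per cell cannot be told apart.

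The mature sequences are shown because they decide which of the 8 entries can target alike, and which could share reads. They are written 5′ to 3′ with the seed in capitals, and the deposited sequences were identical to those of RefSeq for all 8. Positions are those of RefSeq on the GRCr8 assembly.
miR-219a-5p: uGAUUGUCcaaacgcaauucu
miR-219a-2-3p: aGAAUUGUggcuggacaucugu
miR-219a-1-3p: aGAGUUGCgucuggacgucccg
miR-219b: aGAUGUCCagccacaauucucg
miR-338-3p: uCCAGCAUcagugauuuuguuga
miR-338-5p: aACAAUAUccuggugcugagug
miR-3065-5p: uCAACAAAaucacugaugcu
miR-3065-3p: uCAGCACCaggauauuguugggga
No seed was shared between any of these 8. Among the other miRNAs of the table, miR-7a-1-3p, with 924 counts over the 9 libraries, has the same seed as miR-3065-5p, and no other shared a seed with any of the 8.

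miR-219a-5p lies in 2 hairpins, which is why it has 2 partner arms. In the Mir219-2 hairpin, at chr3:33516504-33516599 on the minus strand, it faces miR-219a-2-3p. In the Mir219a1 hairpin, at chr20:4831580-4831689 on the plus strand, it faces miR-219a-1-3p. Both arms are in capitals below.
Mir219-2: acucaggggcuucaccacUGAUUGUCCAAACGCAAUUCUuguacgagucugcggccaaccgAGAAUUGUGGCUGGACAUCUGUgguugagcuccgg
Mir219a1: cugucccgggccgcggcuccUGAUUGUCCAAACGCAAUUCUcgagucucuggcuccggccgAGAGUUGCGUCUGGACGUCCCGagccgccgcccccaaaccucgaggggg
Reads of miR-219a-5p cannot be assigned to a locus, while each of the 3p arms marks its own. Mir219-2 and its antisense hairpin Mir2964, the source of miR-219b, lie within the bounds of Cercam in the RefSeq annotation, where LOC120101515 is also listed. Mir219a1 lies between Hsd17b8 and Ring1. miR-338-3p, at chr10:105796345-105796367 on the minus strand, and the opposing miR-3065-5p, at chr10:105796345-105796364 on the plus strand, lie within the bounds of Aatk, a kinase gene of neural tissue.

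Among the 8 entries 3 pairs are antisense to each other. Each is set out below as the first member and the reverse complement of the second, with the shared bases in capitals.
miR-219a-2-3p: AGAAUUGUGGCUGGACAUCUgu
miR-219b, reverse complement: cgAGAAUUGUGGCUGGACAUCU
miR-338-3p: uccAGCAUCAGUGAUUUUGUUGA
miR-3065-5p, reverse complement: AGCAUCAGUGAUUUUGUUGA
miR-338-5p: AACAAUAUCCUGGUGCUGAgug
miR-3065-3p, reverse complement: uccccAACAAUAUCCUGGUGCUGA
The runs are 20, 20 and 19 bases long. Whether strand was used in counting is not given in the sources used here, so reads of the members of a pair cannot be told apart. Over the 9 libraries miR-219a-2-3p had 6144 counts and miR-219b had 5973. miR-338-3p had 34931 counts and miR-3065-5p had 35424. miR-338-5p had 537 counts and miR-3065-3p had 518. Within single libraries the count of miR-3065-5p was 0.967 to 1.08 times that of miR-338-3p, and the count of miR-219b was 0.905 to 1.16 times that of miR-219a-2-3p. The scarcer pair ran wider, with miR-3065-3p at 0.516 to 1.26 times miR-338-5p. miR-219b, miR-3065-5p and miR-3065-3p are therefore given below beside their partners and are not counted as further evidence. Among all 764 miRNAs, 60 pairs shared an antisense run of at least 16 bases, and the table lists no such partner for miR-219a-5p or miR-219a-1-3p. Of the 60 pairs, 55 had a mean count of at least 10, and their median absolute log2 ratio of counts was 0.23. Near-equal counts were found at other loci too, such as 269107 for miR-9a-5p and 269357 for miR-9b-3p. They were not found for every pair, since miR-218a-5p had 96529 counts and miR-218b had 36588.

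The shallowest library, control 3, had 583045 counts and the deepest, control 1, had 2012769, and the share of a library taken by the 8 entries was 0.754% to 1.04%. That share adds both members of each antisense pair, so a read counted for both would enter it more than once. Levels are given as CPM, a count set against its library total, with TMM scaling, edgeR's factor for differences in composition between libraries. The 8 entries are mature RNAs of similar length, so their CPM needs no division by length. Ligation and PCR can still favour 1 sequence over another, and the library total also holds entries that are not miRNAs. All 8 entries passed edgeR's filter on low counts, which left 1113 entries and 615 miRNAs. Markers of neurons summed to 30843 to 40957 CPM over the libraries, and miR-122-5p of liver stood at 3.34 to 18.8 CPM.

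miR-338-3p, the arm known as the active product of its hairpin, was the most abundant of the miR-338 and miR-219a products and ranked 40 among 615 miRNAs by its mean in control libraries. It stood at 4077, 3526 and 3564 CPM in MMT libraries, at 4136, 3004 and 4238 CPM in MnCl2 libraries and at 4125, 3081 and 2528 CPM in control libraries. The groups overlapped, with control 1 inside the range of the treated libraries and control 3 the lowest of all. The means were 3723 ± 308 CPM in MMT, 3793 ± 685 in MnCl2 and 3245 ± 811 in control (SD, n = 3). miR-3065-5p followed it library by library, at 4081, 3408 and 3617 CPM in MMT, at 4281, 2984 and 4304 CPM in MnCl2 and at 4231, 3119.8 and 2728 CPM in control.

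miR-219a-5p, the arm with most of the known targets of miR-219, stood at 761, 581 and 667 CPM in MMT libraries, at 1095, 533 and 808 CPM in MnCl2 libraries and at 540.3, 577 and 466 CPM in control libraries. The lowest MMT library lay just above the highest control library, while MnCl2 and control overlapped through MnCl2 2. The means were 670.0 ± 89.9 CPM in MMT, 812 ± 281 in MnCl2 and 528 ± 56.9 in control (SD, n = 3), and the control mean ranked 103 among the 615 miRNAs.

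miR-219a-2-3p, the other arm of Mir219-2, stood at 827, 633 and 591 CPM in MMT, at 557, 524 and 697 CPM in MnCl2 and at 880.3, 374 and 412 CPM in control. Control 1 was the highest of the 9 libraries and the other two control libraries were the lowest. Its means of 684 ± 126 CPM in MMT, 593 ± 91.9 in MnCl2 and 555 ± 282 in control (SD, n = 3) did not differ from those of miR-219a-5p beyond the spread in any group. miR-219b ran from 551 to 800.5 CPM in MMT, from 499 to 631 CPM in MnCl2 and from 372 to 842 CPM in control, again with control 1 highest.

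The remaining arms were scarce. miR-338-5p, the passenger arm of miR-338, stood at 52.9, 59.0 and 63.9 CPM in MMT, at 58.1, 59.7 and 68.2 CPM in MnCl2 and at 55.6, 38.2 and 47.2 CPM in control, with every MnCl2 library above every control library. miR-3065-3p stood at 57.1, 52.7 and 59.0 CPM in MMT, at 60.8, 56.7 and 59.8 CPM in MnCl2 and at 56.8, 47.9 and 24.3 CPM in control, where control 3 was well below the rest. miR-219a-1-3p, which marks the Mir219a1 locus, had 4 to 21 counts in a library and a mean of 8.04 ± 1.85 CPM in MMT, 8.01 ± 2.70 in MnCl2 and 9.84 ± 3.25 in control (SD, n = 3). Its control mean ranked 526 among the 615 miRNAs, against 96 for miR-219a-2-3p, so of the reads on 3p arms of miR-219a most lay on the Mir219-2 arm in every library.

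**Figure D1:**
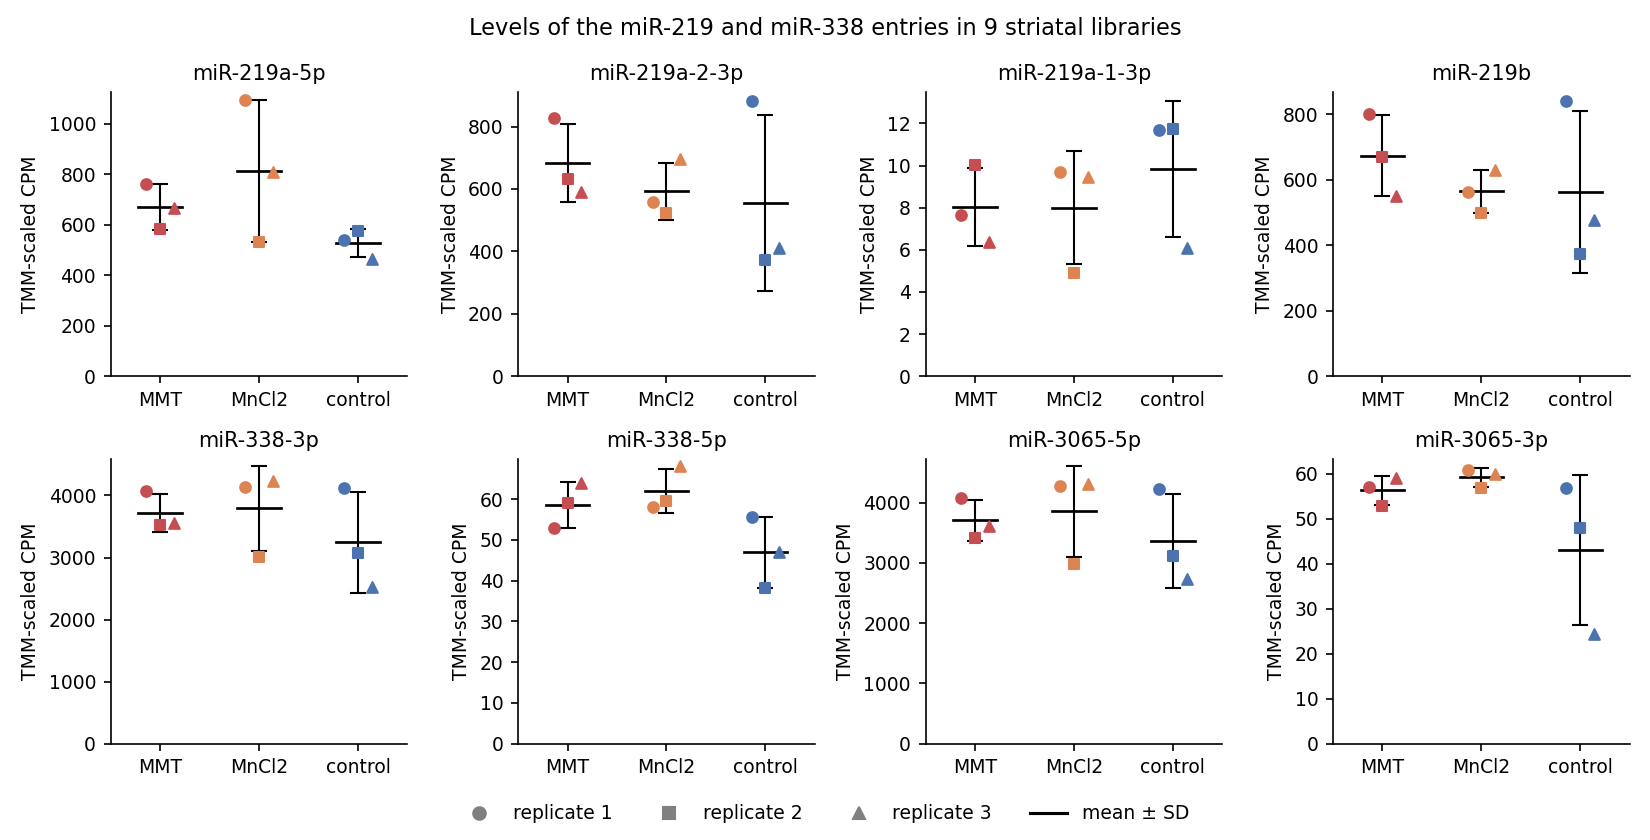
Levels of the 8 entries (y axis, TMM-scaled CPM) in MMT, MnCl2 and control libraries, with a point per library, a bar at the mean and whiskers of 1 SD (n = 3). Control 1 lies at 880.3 CPM for miR-219a-2-3p, above every other library, while for miR-219a-5p it lies at 540.3 CPM, below every MMT library.

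In order of level, miR-338-3p stood above miR-219a-5p and miR-219a-2-3p in every library, these stood above miR-338-5p, and miR-219a-1-3p was lowest. miR-219a-5p and miR-219a-2-3p were neighbours that could not be ordered. Added together, the miR-219a products came to 1596, 1224 and 1265 CPM in MMT, to 1662, 1062 and 1515 CPM in MnCl2 and to 1432, 963 and 884 CPM in control. The miR-338 products came to 4130.3, 3585 and 3628 CPM in MMT, to 4194, 3064 and 4306 CPM in MnCl2 and to 4181, 3119 and 2576 CPM in control, and 98.5% of that sum was miR-338-3p. Both sums overlapped between all groups.

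The first comparison asks whether MMT, an organic form of manganese, changed these miRNAs relative to corn oil. None of the 8 entries passed the test, and 7 of 8 had a positive log2 fold change. With edgeR's quasi-likelihood test over all 9 libraries and Benjamini-Hochberg adjustment over all 1113 entries, 0 of 8 were called at 0.05, as were 0.0% of all entries. Unadjusted p-values under 0.05 were found for 0 of the 8, and for 0.18% of all entries with a positive and 1.98% with a negative fold change, 24 entries in all, and DESeq2 called 0 entries with 23 under 0.05 unadjusted. The log2 fold change was 0.34 (SE 0.22) for miR-219a-5p, 0.29 (SE 0.29) for miR-219a-2-3p and -0.34 (SE 0.57) for miR-219a-1-3p. For miR-338-3p it was 0.20 (SE 0.20), and for miR-338-5p 0.31 (SE 0.24). The opposing entries had log2 fold changes of 0.25 (miR-219b, SE 0.26), 0.14 (miR-3065-5p, SE 0.20) and 0.36 (miR-3065-3p, SE 0.30). The adjusted p from edgeR was 1.00 for each of the 8.

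The median log2 fold change of the 8 entries was 0.27, against 0.01 over all entries and 0.04 over all miRNAs. Positive fold changes were found for 53.1% of all entries and 57.4% of miRNAs. Only miR-219a-5p had all 3 MMT libraries above all 3 control libraries, which held for 1.8% of all entries and 2.28% of miRNAs, while 2.79% of all entries had every MMT library below every control library. That separation was narrow, at 581 CPM in the lowest MMT library and 577 CPM in the highest control library. Of the positive fold changes 3 belong to antisense partners, and the 5 hairpin products give 4 positive values, with a median of 0.29. Fitted on miRNA entries alone, where the median miRNA had -0.10, miR-219a-5p had 0.20, miR-338-3p 0.05 and miR-3065-5p -0.004, which turns that 1 direction.

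Control 1, the deepest library, and control 3, the shallowest, moved several of these differences in opposite directions. Without control 1, the log2 fold change for MMT against control was 0.81 (SE 0.19) for miR-219a-2-3p, 0.68 (SE 0.19) for miR-219b, 0.42 (SE 0.19) for miR-338-3p and 0.62 (SE 0.33) for miR-3065-3p, while miR-219a-5p stayed at 0.37 (SE 0.25). The lowest adjusted p from edgeR was then 0.713, and 0 of 8 entries were called. Without control 3 it was 0.05 (SE 0.20) for miR-338-3p, 0.01 (SE 0.21) for miR-3065-5p, 0.11 (SE 0.24) for miR-3065-3p, 0.11 (SE 0.32) for miR-219a-2-3p, 0.14 (SE 0.30) for miR-219b and 0.27 (SE 0.24) for miR-219a-5p. Without control 2 the value for miR-219a-2-3p was 0.04, and that for miR-219b was -0.01.

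The second comparison sets inorganic manganese, MnCl2, against the same control libraries, so its values are not independent of those above. miR-219a-5p had the widest difference of the 8, a log2 fold change of 0.62 (SE 0.23) that did not pass after adjustment (edgeR, unadjusted 0.0192, adjusted p = 0.843). Here too 0 of 8 entries were called, as were 0.0% of all 1113. An unadjusted p under 0.05 was found for 1 of the 8, which was higher in MnCl2, and for 1.44% of all entries as higher and 3.14% as lower, 51 entries in all, and DESeq2 called 0 entries with 69 under 0.05 unadjusted. The log2 fold change was 0.09 (SE 0.29) for miR-219a-2-3p and -0.34 (SE 0.58) for miR-219a-1-3p. miR-338-3p had 0.22 (SE 0.20) and miR-338-5p 0.39 (SE 0.24). The antisense entries had log2 fold changes of -0.003 (miR-219b, SE 0.26), 0.20 (miR-3065-5p, SE 0.20) and 0.43 (miR-3065-3p, SE 0.30). Adjusted p-values from edgeR ran from 0.843 to 0.999.

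Of the 8, 6 had a positive log2 fold change with a median of 0.21, against a median of 0.06 over all entries and 0.23 over miRNAs. Since 77.4% of miRNAs and 57.3% of all entries were positive, neither the count nor the median stood apart from other miRNAs. Fitted on miRNA entries alone the median miRNA had -0.05, and miR-338-3p then had -0.06, miR-3065-5p -0.09, miR-219a-2-3p -0.19 and miR-219a-5p 0.32. miR-338-5p was the only entry of the 8 with all 3 MnCl2 libraries above all 3 control libraries, which held for 4.76% of all entries and 7.8% of miRNAs. For 4.94% of all entries every MnCl2 library lay below every control library.

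The value for miR-219a-5p leaned on MnCl2 1, at 1095 CPM. Without this library the log2 fold change for MnCl2 against control was 0.34 (SE 0.20), and without MnCl2 2, at 533 CPM, it was 0.85. MnCl2 1 also had the highest sums of several markers of other cells, whose part in the result was not tested. This did not hold for skeletal muscle markers, which summed to 98.2 CPM in MnCl2 1, the lowest of the MnCl2 libraries. Nor did it hold for neuron markers, which summed to 36542 CPM in MnCl2 1 and 38522 CPM in MnCl2 3. For miR-122-5p of liver the values were 15.2 CPM in MnCl2 1 and 15.6 CPM in MnCl2 2. Both smooth muscle and pericyte markers, miR-143-3p and miR-145-5p, summed to 19263 CPM in MnCl2 1, 7694 in MnCl2 2 and 8421 in MnCl2 3, against 7028 to 9918 CPM in control. The 3 erythrocyte markers summed to 185 CPM in MnCl2 1, 66.5 in MnCl2 2 and 96.6 in MnCl2 3, against 66.8 to 108 CPM in control. The 6 markers of microglia and leukocytes summed to 2385, 1496 and 1592 CPM in the same libraries, against 1442 to 1857 CPM in control. Among single markers of these and the other cells listed further on, 3 had an unadjusted p under 0.05 for MnCl2 against control (edgeR). They are 1 of 3 erythrocyte, 1 of 3 skeletal muscle and 1 of 6 microglia and leukocyte markers. All 3 are named because of these values. Over all entries, 1.44% were under 0.05 as higher and 3.14% as lower. The erythrocyte marker miR-144-3p stood at 30.7 ± 15.5 CPM in MnCl2 and 10.3 ± 4.64 CPM in control (SD, n = 3), a log2 fold change of 1.60 (SE 0.54). The skeletal muscle marker miR-1-3p stood at 29.5 ± 27.9 CPM in MnCl2 and 8.16 ± 2.27 CPM in control (SD, n = 3). Its log2 fold change was 1.89 (SE 0.66), and that of the leukocyte marker miR-223-3p was 0.72 (SE 0.29). The edgeR adjusted p was 0.843 for each of the 3. The most abundant markers of the same lists moved less, at 0.13 for miR-451-5p, 0.20 for miR-206-3p and -0.12 for miR-146a-5p. A positive value was found for 3 of 3 erythrocyte, 3 of 3 skeletal muscle and 4 of 6 microglia and leukocyte markers. miR-150-5p, of the last list, had -0.42. None of the markers in these lists was at 0 in all libraries.

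Without control 1, MnCl2 against control gave 0.64 (SE 0.26) for miR-219a-5p, 0.60 (SE 0.19) for miR-219a-2-3p and 0.44 (SE 0.19) for miR-338-3p, and each had an edgeR adjusted p of 0.984. Without control 3 the value for miR-338-3p was 0.0035 (SE 0.20), that for miR-3065-3p was 0.10 (SE 0.25) and that for miR-219a-5p was 0.47 (SE 0.24). For miR-219a-2-3p the value was negative without control 2 (-0.22), control 3 (-0.16) or MnCl2 3 (-0.04).

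**Figure D2:**
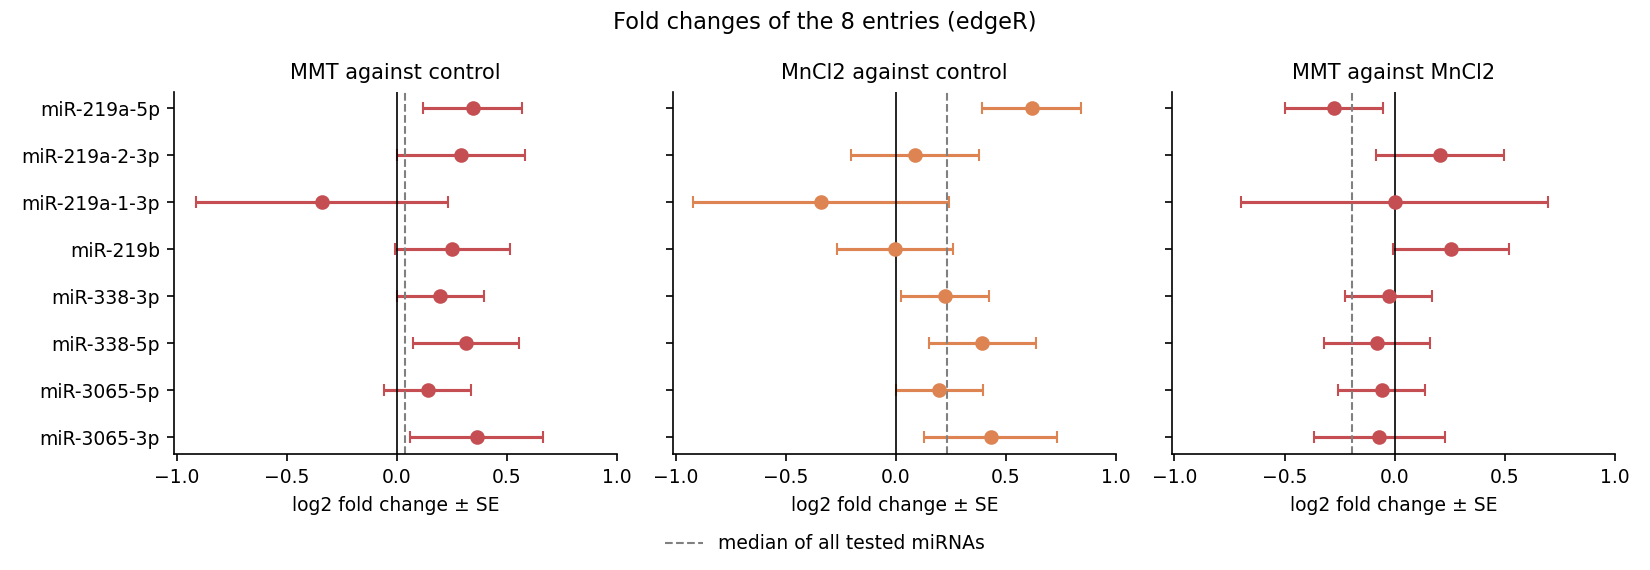
Log2 fold change (x axis, edgeR, whiskers of 1 SE, 9 libraries in 1 fit) of the 8 entries (rows) in each comparison, with a dashed line at the median of all 615 tested miRNAs. miR-219a-5p lies farthest to the right in the panel of MnCl2 against control, at 0.62, and miR-219a-1-3p, with 4 to 21 counts per library, has the longest whiskers.

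MMT and MnCl2 were also set against each other, although they differ in dose and vehicle as well as in the form of manganese. None of the 8 entries differed past the threshold, and 0.0% of all entries did. For miR-219a-5p the log2 fold change of MMT against MnCl2 was -0.27 (SE 0.22). miR-219a-2-3p had 0.21 (SE 0.29) and miR-219b 0.25 (SE 0.26), and the other 5 lay between -0.08 and 0.0004. Adjusted p-values from edgeR ran from 0.981 to 1.00, with 0 of the 8 under 0.05 unadjusted and 1.35% of all entries so as higher and 0.629% as lower, 22 in all, and DESeq2 called 0 entries with 34 under 0.05 unadjusted. In 3 of the 8 the value was positive, against 41.9% of all entries and 27.2% of miRNAs. The groups overlapped for all 8, while 4.31% of all entries and 1.14% of miRNAs had every MMT library above every MnCl2 library, and 4.76% of all entries had every one below. Without MnCl2 1 the value for miR-219a-5p was 0.01.

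Ratios of counts within a library compare the arms without any scaling between libraries. The ratio of miR-219a-2-3p to miR-219a-5p was 1.09, 1.09 and 0.886 in MMT libraries, 0.509, 0.983 and 0.862 in MnCl2 libraries and 1.63, 0.647 and 0.886 in control libraries. Both extremes were single libraries, MnCl2 1 with the lowest ratio and control 1 with the highest. The mean log2 ratio differed by 0.05 between MMT and control and by -0.37 between MnCl2 and control, with exact two-sided permutation p of 0.9 and 0.5 (n = 3 per group). The design allows no p below 0.1. The difference of -0.37 for MnCl2 became -0.0031 without control 1 and -0.086 without MnCl2 1.

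For miR-338 the ratio of the 5p to the 3p arm was 0.0130 to 0.0179 in MMT, 0.0140 to 0.0199 in MnCl2 and 0.0124 to 0.0187 in control. Its mean log2 value differed by 0.10 for MMT against control and by 0.17 for MnCl2 against control (exact permutation p = 0.9 and 0.5, n = 3 per group). The ratio of miR-219a-5p to miR-338-3p, a comparison of the families, was 0.187, 0.165 and 0.187 in MMT, 0.265, 0.177 and 0.191 in MnCl2 and 0.131, 0.187 and 0.184 in control. Again MnCl2 1 was the highest and control 1 the lowest, and the other libraries lay together. Its mean log2 value differed by 0.12 for MMT and 0.33 for MnCl2, each against control (exact permutation p = 0.7 and 0.4, n = 3 per group). The difference for MnCl2 became 0.15 without MnCl2 1 and 0.16 without control 1. For miR-219b to miR-219a-2-3p the differences were -0.07 for MMT and -0.11 for MnCl2, each against control (exact permutation p = 0.6 and 0.4, n = 3 per group). After Benjamini-Hochberg adjustment over the 8 ratio tests each exact permutation p was 0.9.

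**Figure D3:**
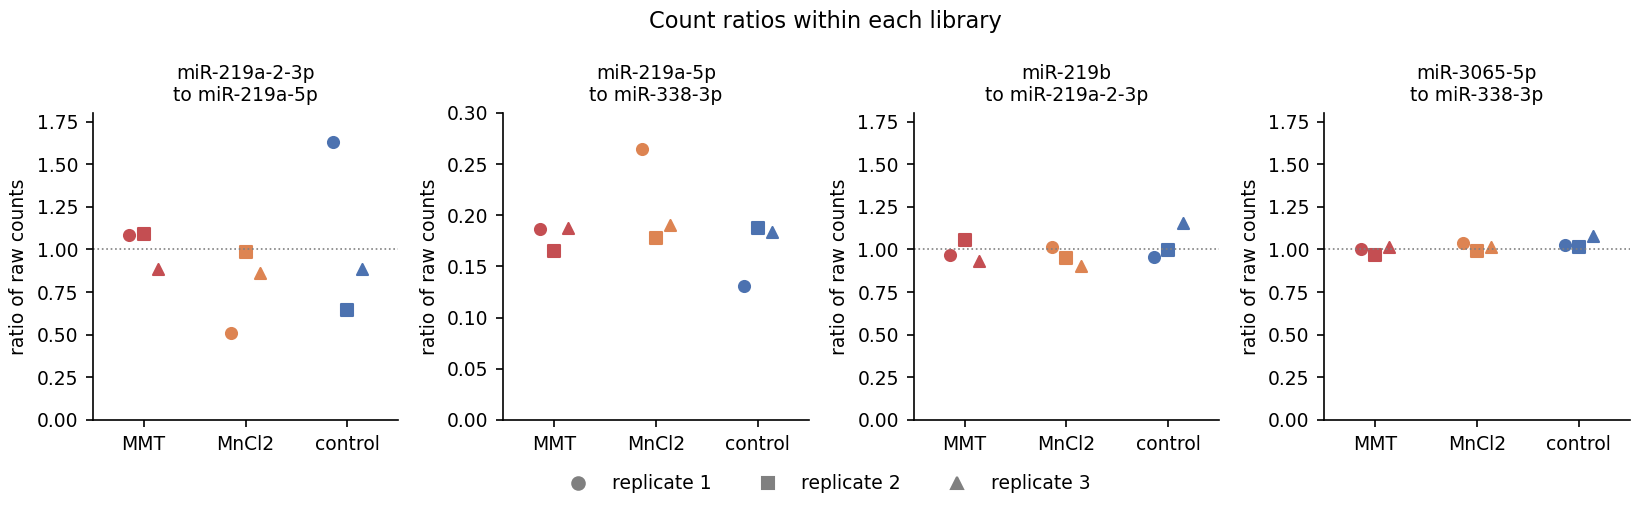
Ratio of raw counts within each library (y axis) for miR-219a-2-3p over miR-219a-5p, for miR-219a-5p over miR-338-3p, and for 2 antisense pairs, in MMT, MnCl2 and control. The antisense ratios lie near the dotted line at 1, while miR-219a-2-3p over miR-219a-5p runs from 0.509 in MnCl2 1 to 1.63 in control 1.

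The total count of a library moved with the levels of many small RNAs, and 32.2% of all entries were called for a term of log2 total count in an edgeR fit that also held the group. As higher with a larger total, 8.45% of all entries were called. All 8 entries had a positive change per doubling of the total, with a median of 0.28 on the log2 scale, against -0.01 over all entries and -0.21 over miRNAs. The 8 include miR-219b, miR-3065-5p and miR-3065-3p, which are not separate evidence from their antisense partners. Positive values were found for 49.6% of all entries and 42.4% of miRNAs. None of the 8 passed the adjusted threshold, while 4 of them and 15.5% of all entries had a positive change at an unadjusted p under 0.05 (edgeR). The 4 were miR-219a-2-3p, miR-338-3p, its antisense partner miR-3065-5p, and miR-3065-3p. For miR-338-5p, the partner of miR-3065-3p, the change was 0.16 (SE 0.18). miR-219a-2-3p had 0.50 per doubling (SE 0.17, adjusted p = 0.0502, edgeR), miR-338-3p had 0.28 (SE 0.12, adjusted p = 0.0764) and miR-219a-5p had 0.07 (SE 0.19, adjusted p = 0.802). With total-count scaling in place of TMM, miR-219a-2-3p had 0.30 (adjusted p = 0.178), miR-338-3p had 0.093 (adjusted p = 0.577) and miR-219a-5p had -0.12, all from edgeR. The number of the 8 that were called moved between 0 and 5 as single libraries were left out. The number called over all entries moved too. Without control 2, 5 of the 7 members then tested were called, with 488 of 1137 entries. The counts were 3 without MMT 3 (334 of 1144 entries), 3 without MnCl2 2 (410 of 1125) and 2 without MnCl2 1 (494 of 1144). There was 1 without MMT 1 (343 of 1143) and 1 without MMT 2 (270 of 1130). Without control 1, the deepest library, none of the 8 was called, and miR-219a-2-3p had 0.02 per doubling. Over all entries 50 of 1144 were then called. None of the 8 was called without control 3 (208 of 1129 entries) or without MnCl2 3 (327 of 1141) either. What the total count stands for in these libraries was not tested.

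**Figure D4:**
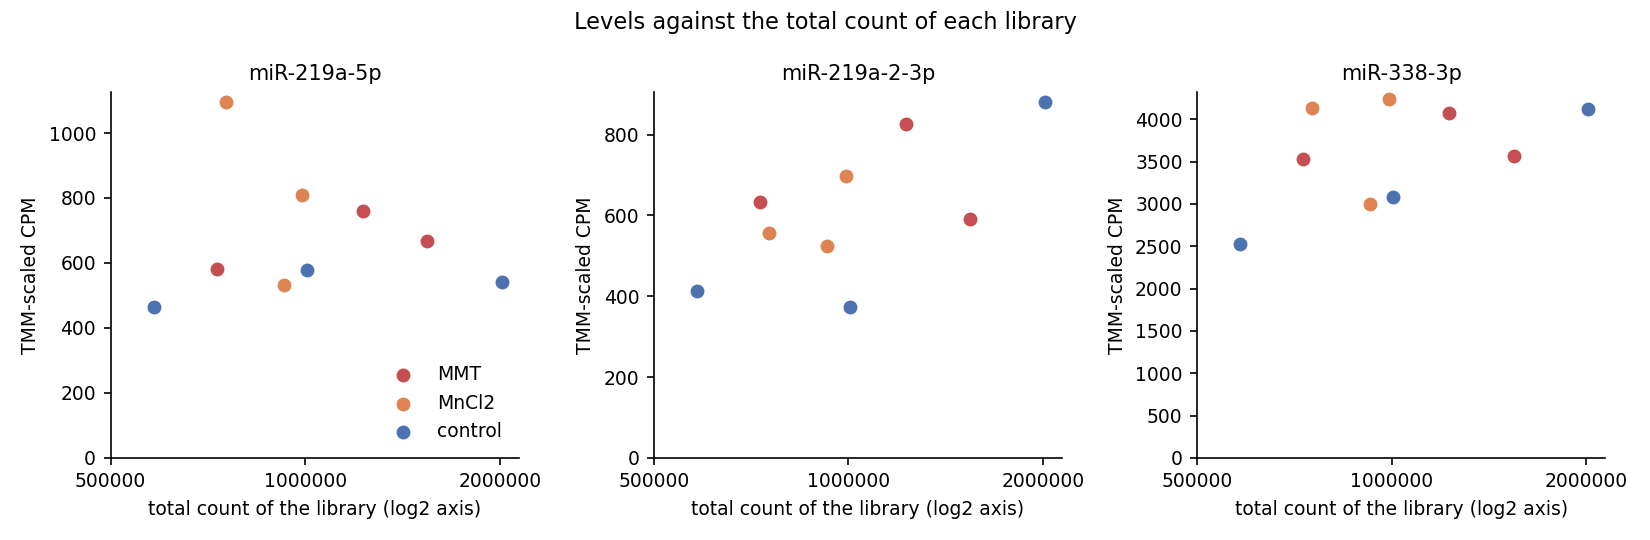
Level (y axis, TMM-scaled CPM) against the total count of the library (x axis, counts, log2 scale) for miR-219a-5p, miR-219a-2-3p and miR-338-3p, with a point per library coloured by group. For miR-219a-2-3p the deepest library, control 1 with 2012769 counts, is the highest at 880.3 CPM, whereas for miR-219a-5p it lies among the lower libraries.

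Likeness between entries was measured as the root mean square difference in log2 CPM over the 9 libraries, after centring each entry on its mean. It describes these 9 libraries and carries no test, since all entries of a library have its depth and composition in common. Among the 8, the abundant antisense pairs were closest, at 0.041 for miR-338-3p with miR-3065-5p and 0.10 for miR-219a-2-3p with miR-219b. miR-219a-5p and miR-219a-2-3p lay much farther apart, at 0.448. miR-219a-5p was nearer to miR-338-3p, at 0.247, and so was miR-219a-2-3p, at 0.242. Neither was nearer to miR-338-3p than the median of the other miRNAs compared, 0.240. Among 195 miRNAs of at least 100 CPM, those nearest to miR-219a-5p outside the 8 were miR-872-5p (0.169), miR-17-5p (0.188) and miR-101a-3p (0.192), against a median distance of 0.345. Those nearest to miR-338-3p were miR-21-5p (0.0749), miR-27b-3p (0.0802) and miR-140-3p (0.0990), against a median of 0.240.

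Other miRNAs with published roles in oligodendrocyte precursors or myelination were looked at as a list of 15, all of which were tested. None was called for MMT or for MnCl2 against control. In MMT 10 of 15 had a positive and 5 a negative log2 fold change, with a median of 0.07, and in MnCl2 11 had a positive and 4 a negative one, with a median of 0.14. The median over all miRNAs was 0.04 for MMT and 0.23 for MnCl2. miR-17-5p and miR-27b-3p, named above, are on this list. The most abundant were miR-9a-5p, also a miRNA of neural progenitors and neurons, and miR-7a-5p. miR-9a-5p stood at 28127 ± 4576 CPM in MMT, 27058 ± 4739 in MnCl2 and 26769 ± 4891 in control. miR-7a-5p stood at 25929.7 ± 6587 CPM in MMT, 23073 ± 5571 in MnCl2 and 24843 ± 3741 in control (SD, n = 3).

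In the marker lists of other cells, too, 0 entries were called in any comparison. Of the 5 neuron markers the most abundant were miR-128-3p, at 19463 ± 2699.8 CPM in MMT, 18069 ± 1551 in MnCl2 and 19384 ± 2709.8 in control, and miR-218a-5p, at 10275 ± 1255 CPM in MMT, 9840.1 ± 831 in MnCl2 and 9599.7 ± 1648 in control (SD, n = 3). The microglia and leukocyte list was led by miR-142-3p (629.7 ± 106 CPM in MMT, 681 ± 262 in MnCl2 and 467 ± 127 in control) and miR-146a-5p (649 ± 94.0 CPM in MMT, 632 ± 99.2 in MnCl2 and 685 ± 166 in control). The endothelial markers miR-126a-3p and miR-126a-5p had log2 fold changes of 0.11 and 0.05 for MMT and of 0.12 and 0.17 for MnCl2, each against control. miR-143-3p and miR-145-5p, of smooth muscle and pericytes, had 0.06 and -0.06 for MMT and 0.51 and 0.52 for MnCl2, each against control. miR-145-5p, miR-146a-5p and miR-204-5p are also on the oligodendrocyte-lineage list. Choroid plexus markers summed to 219.8 to 1936 CPM in MMT, 244 to 1172 CPM in MnCl2 and 356 to 1049.7 CPM in control, nearly all of it miR-204-5p with little miR-211-5p. The erythrocyte markers miR-451-5p and miR-144-5p averaged 41.6 and 27.0 CPM in MMT, 49.3 and 36.1 CPM in MnCl2 and 45.0 and 26.7 CPM in control. Skeletal muscle markers, led by miR-206-3p and miR-1-3p, summed to 65.4 to 163 CPM in MMT, 98.2 to 210.3 CPM in MnCl2 and 76.8 to 125 CPM in control.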

How the data were processed

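Per the labels' protocols, TRIzol was used to extract striatal RNA, and pieces of 15 to 45 nucleotides were cut from a gel for the QIAseq miRNA kit. Trimmomatic (version not given) and the build rn6 are named, per the submitters' processing notes. For the aligner, strand, molecular identifiers and reads that match several sequences, the treatment is not given in the sources used here. The authors deposited raw counts per small RNA, 1 column per library, with no normalization. Counts may include PCR copies.

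Groups and replicate numbers came from the sample titles. A two-sided quasi-likelihood test was run on the counts of all 9 libraries in 1 robust fit (edgeR 4.0.16, R 4.3.3, with TMM scaling and the filterByExpr filter), with Benjamini-Hochberg adjustment over 1113 entries at 0.05. The biological coefficient of variation was 0.279. The SE is the log2 fold change divided by the square root of F. Ratios had 0.5 added to each count before log2 and were compared by exact permutation over 20 arrangements. Sequences and GRCr8 positions are from RefSeq. Since the build of the files differs, gene neighbours come from GRCr8 alone.

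The entries and lists were chosen with earlier results of these data known. Named entries are the 8, the 3 miRNAs nearest to miR-219a-5p and to miR-338-3p, and any called entry or else the 2 most abundant of each list (oligodendrocyte lineage, oligodendrocyte, neuron, microglia and leukocyte, endothelium, smooth muscle and pericyte, choroid plexus, erythrocyte, skeletal muscle, liver). The oligodendrocyte list is made of the 5 hairpin products. Alternatives were DESeq2 1.42.0, other scalings, filters and covariates, miRNAs alone, 1 entry per antisense pair and each library left out. The edgeR fit for MMT against control was also run on simulated counts, while the ratio tests, the total count term and the likeness were not.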

Additional observations from a re-analysis of the deposited data

How the results depend on the processing

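No entry of the 8 was called in any group comparison under any of the 12 other settings or with any library left out. The settings did change the sizes of the values and the signs of small ones. The 12 were DESeq2, RLE and total-count scaling, miRNAs alone, no filter, 10 or 50 CPM in 3 libraries, the compared groups alone, the total as a covariate, the replicate number as a block, a fit without robust weights and 1 entry per antisense pair. The filter of 50 CPM was chosen after seeing the data, since 10 CPM kept the same entries. miR-219a-1-3p had no value where it fell below the filter. Fitted on miRNAs alone, the log2 fold change turned to -0.0038 for miR-3065-5p in MMT against control, and for MnCl2 against control to -0.19 for miR-219a-2-3p, -0.062 for miR-338-3p and -0.089 for miR-3065-5p. With no filter, miR-219a-2-3p had -0.036 for MnCl2 against control. The value near 0 for miR-219b, MnCl2 against control, became 0.010 with the compared groups alone, 0.056 at 50 CPM, 0.13 with the total as a covariate and 0.025 with total-count scaling. That covariate gave 0.64 for miR-219a-5p, 0.59 for miR-3065-3p, 0.33 for miR-338-3p and -0.34 for miR-219a-1-3p in the same comparison. An unadjusted p under 0.05 (edgeR) was then found for 3 of the 8 and for 114 of 1113 entries. In the main fit these were 1 of the 8 and 51 entries. With total-count scaling, miR-219a-5p had -0.12 per doubling of the total. The causes were not tested.

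Leaving out each library gave -0.22 to 0.60 for miR-219a-2-3p, -0.31 to 0.42 for miR-219b and -0.0018 to 0.40 for miR-3065-5p in MnCl2 against control, -0.0070 to 0.68 for miR-219b in MMT against control, and -0.50 to 0.0057 for miR-219a-5p in MMT against MnCl2. For MMT against control the differences in mean log2 ratio ran from -0.24 to 0.42 (miR-219a-2-3p to miR-219a-5p), -0.015 to 0.28 (arms of miR-338), -0.052 to 0.21 (miR-219a-5p to miR-338-3p) and -0.12 to 0.014 (miR-219b to miR-219a-2-3p). For MnCl2 against control they ran, in the same order of ratios, from -0.67 to -0.0031, 0.040 to 0.35, 0.15 to 0.44 and -0.17 to -0.030. Called changes of the 8 entries with the total count numbered 0 to 5, while those over all entries numbered 50 to 494. Same-numbered libraries deviated from their group means with correlations of -0.67 to 0.49. Libraries with different numbers were not compared in this way, so whether the numbers pair the libraries is not settled. With the replicate number as a block, 0 of the 8 were called, and miR-219b had 0.075 for MnCl2 against control. miR-219a-1-3p, with 4 to 21 counts a library, is limited by depth.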

Other observations

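miR-219a-5p and miR-219a-2-3p did not keep a fixed ratio between libraries, and since miR-219a-5p also lies in Mir219a1, the ratio is not that of the Mir219-2 arms alone. Within groups the SD of the log2 ratio of miR-219a-5p to miR-219a-2-3p was 0.50, which ranked 25 among 94 pairs with at least 20 mean counts on both arms, where the median SD was 0.36 and the miR-338 pair ranked 69 with 0.27. Among the 17 pairs with at least 200 mean counts on both arms, a subset chosen after the values were seen, it was the widest, and the next had 0.364 against a median of 0.176. Arms were paired by identical names, and the miR-219a pair alone was added by hand. Other pairs with a numbered arm, such as those of miR-24-2-5p or miR-181a-1-3p, are therefore missing from both rankings. Antisense loci such as miR-338 and miR-3065 each count as a pair. The miR-219a ratio was set apart by MnCl2 1 and control 1, and the cause was not tested.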
